A study of Homo sapiens with 4 samples.

Results

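The genes of the gut epithelial surface described here, 10 in all, were followed in A549 cells, a human lung adenocarcinoma line, with and without raised GATA4, a transcription factor of heart and endoderm development. They were CDH17, CDHR2, CDHR5, TM4SF4, TM4SF5, LGALS4, VIL1, TFF1, TFF2 and TFF3, taken by gene symbol as genes of intestinal differentiation, and all 10 were found among the 23143 gene symbols of the deposited table. The list was chosen partly for the higher values of CDH17, LGALS4 and TM4SF5 with doxycycline in these same libraries, so the differences of its genes between the groups are given as a description, with no test. The 4 libraries of polyadenylated RNA formed a noDOX group of 2 (A549 cells called A549i in the design text, given vehicle, GATA4 at its normal level) and a DOX group of 2 (the same cells with doxycycline and GATA4 overexpressed). The clone and the dose and duration of doxycycline were not given in the sources used here, and doxycycline-treated A549 cells without inducible GATA4 were not analysed here.

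In the intestine, villin (VIL1) bundles the actin core of the microvilli that make up the brush border, and the protocadherins CDHR2 and CDHR5 join the tips of neighbouring microvilli. CDH17, the liver-intestine cadherin, joins cells at their sides, galectin-4 (LGALS4) binds sugars of glycoproteins and glycolipids on their way to the apical surface, and TM4SF4 and TM4SF5 are membrane proteins of the L6 family, which resemble tetraspanins. The trefoil factors TFF1, TFF2 and TFF3 are small secreted peptides that act with mucus in the stomach and gut.

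Values are FPKM, fragments corrected for transcript length and for the size of the library, so levels can be compared between genes. No read counts were at hand, so the depth is unknown and no counting error can be given. FPKM sums were higher in noDOX library 1 and DOX library 2 (1381822 and 1238483) than in noDOX library 2 and DOX library 1 (989493 and 975728), and small RNA genes held 34.8 to 41.8% of each. Nothing in the labels says that the libraries of a group came from separate cultures, so p-values measure no more than how far these libraries spread, and that spread may be technical. A549 cells showed the epithelial markers of the line, with KRT8 at 2339 to 5245 FPKM and KRT18 at 1728 to 2917 FPKM, and CDKN2A and CDKN2B, deleted in A549, were listed at 0 in all 4 libraries. Of 9 alveolar markers 6 were under 1 FPKM in every library, among them NKX2-1 and SFTPC. Of 8 gut markers 6 were under 1 FPKM in every library, CDX1 was at 0 in all, and the summed level was 8.84 and 5.58 FPKM in noDOX and 3.96 and 7.03 FPKM in DOX libraries, so the cells did not show a gut epithelial marker profile in either group. EPCAM, an adhesion molecule of epithelia, was at 8.27 and 13.7 FPKM in noDOX and 3.83 and 3.08 FPKM in DOX libraries. The summed level of 6 liver markers was 237 and 198 FPKM in noDOX and 81.6 and 118 FPKM in DOX libraries, most of it from the fibrinogen gene FGB without doxycycline, and the part of these markers in the results was not tested. All 4 endothelial markers and 4 of 6 blood markers were also under 1 FPKM throughout. In bulk RNA, more cells expressing a gene and more RNA per cell cannot be told apart.

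The gut surface genes did not move as one group. Both DOX libraries lay above both noDOX libraries for 5 of the 10 genes (TM4SF5, CDH17, LGALS4, VIL1 and TFF2) and below them for 1 (TM4SF4), and the libraries overlapped for TFF1, TFF3, CDHR2 and CDHR5. Over all 19429 genes above 0 in some library the shares were 12.6% and 19.4%, given as background only because the list was chosen on this contrast. On the log2(FPKM + 1) scale, whose pseudocount of 1 understates changes of low genes, the median difference of the 10 genes was 0.43, against -0.04 over the 12504 genes whose mean reached 1 FPKM. That filter was passed by 6 of the 10 genes, and each of the 6 was above 1 FPKM in every library. TFF2, TFF3, CDHR2 and CDHR5 did not pass it.

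TM4SF5 had the largest difference of the list and TM4SF4, of the same family, differed in the opposite direction. TM4SF5 was at 14.7 and 8.79 FPKM in noDOX libraries 1 and 2 and at 196 and 187 FPKM in DOX libraries 1 and 2. The group means were 11.7 ± 4.2 and 191 ± 6 FPKM (SD, n = 2 each). The DOX mean was 16.3 times as high, and the log2 difference of 3.95 ranked 3 of 12117 tested genes outside the small RNA classes. TM4SF5, CDH17 and LGALS4 were chosen partly for their rise, so their ranks, here and below, are a description and no support. Of the other tested genes of the list, VIL1 ranked 604, TFF1 855 and TM4SF4 11940. In rank within the library TM4SF5 went from percentiles 77.6 and 69.3 of all genes outside the small RNA classes to 98.2 and 97.5, and it was the highest of the 10 genes in both DOX libraries. TM4SF4 had 40.8 and 36.6 FPKM in noDOX and 20.3 and 15.4 FPKM in DOX libraries, and the groups did not overlap. Its means were 38.7 ± 3.0 and 17.9 ± 3.4 FPKM, 2.17 times as high without doxycycline, with a log2 difference of -1.08. Within single libraries, which needs no scaling between them, the ratio of TM4SF5 to TM4SF4 was 0.360 and 0.240 in noDOX and 9.65 and 12.1 in DOX libraries. The pair thus changed order, from TM4SF4 above TM4SF5 in both noDOX libraries to TM4SF5 above TM4SF4 in both DOX libraries.

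Promoter sequences of 4 of the 10 genes were found in the RefSeq table (GRCh38.p14), for TM4SF4, TM4SF5, LGALS4 and CDHR2. The 250 bases before the transcript start are shown for TM4SF5 and LGALS4, which were higher with doxycycline, and for TM4SF4, which was lower, so that the GATA words in them can be compared. Capitals mark a match to a GATA word (AGATAA or AGATAG or TGATAA or TGATAG, either strand), and sequences run 5′ to 3′ on the strand of the gene.
TM4SF5, chr17:4771636-4771885, plus strand: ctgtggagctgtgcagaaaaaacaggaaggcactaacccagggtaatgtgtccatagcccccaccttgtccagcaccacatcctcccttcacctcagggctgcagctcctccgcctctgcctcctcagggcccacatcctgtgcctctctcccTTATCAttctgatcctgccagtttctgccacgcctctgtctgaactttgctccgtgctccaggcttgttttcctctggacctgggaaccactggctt
LGALS4, chr19:38812946-38813195, minus strand: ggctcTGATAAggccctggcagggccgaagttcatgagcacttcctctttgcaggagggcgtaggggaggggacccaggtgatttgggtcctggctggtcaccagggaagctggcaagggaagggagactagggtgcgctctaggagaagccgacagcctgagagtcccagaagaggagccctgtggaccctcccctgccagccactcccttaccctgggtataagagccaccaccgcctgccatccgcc
TM4SF4, chr3:149474447-149474696, plus strand: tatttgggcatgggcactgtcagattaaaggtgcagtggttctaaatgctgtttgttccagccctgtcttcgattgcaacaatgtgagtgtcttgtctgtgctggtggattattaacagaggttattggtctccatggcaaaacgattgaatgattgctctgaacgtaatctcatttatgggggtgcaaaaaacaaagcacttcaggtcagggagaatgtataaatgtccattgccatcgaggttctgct
The TM4SF5 promoter held 1 word, TGATAA read on the other strand, from 97 to 92 bases before the start. LGALS4 also held 1, TGATAA on its own strand, from 245 to 240 bases before the start, and TM4SF4 and the 2 promoters of CDHR2 held none (0). Of 35116 promoter windows of this length 22.3% held a GATA word. The word TTTATG, bound by CDX factors, was found in TM4SF4 only of these promoters, 76 to 71 bases before the start, and in 9.64% of all windows. The HNF4 word CAAAGTCCA was in none of them (0) and in 0.325% of all windows, its words not overlapping those of GATA or CDX. A match is a description of the letters and not a bound site.

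Of the other 3 L6 genes tested 0 passed (limma), against 0.088% of all genes. An unadjusted p under 0.05, which 6.34% of all genes had, was found for 1, TM4SF1, whose groups did not overlap. TM4SF1, the neighbour of TM4SF4 in the RefSeq gene order and the founding L6 antigen, was at 447 and 382 FPKM in noDOX and 1360 and 1039 FPKM in DOX libraries, the highest level of the family. The log2 difference of TM4SF1 was 1.52 (SE 0.39; limma, adjusted p = 0.578). TM4SF1 shares exon bases with the antisense gene TM4SF1-AS1, and whether the authors counted by strand was not given in the sources used here. TM4SF18, also beside TM4SF1, was at 9.03 and 4.83 FPKM and at 7.28 and 7.20 FPKM, with overlapping libraries. TM4SF20 was at 61.9 and 95.4 FPKM in noDOX and 45.0 and 69.5 FPKM in DOX libraries, which also overlapped. The values of the neighbours TM4SF1 and TM4SF4 thus differed in opposite directions between the groups.

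**Figure D1:**
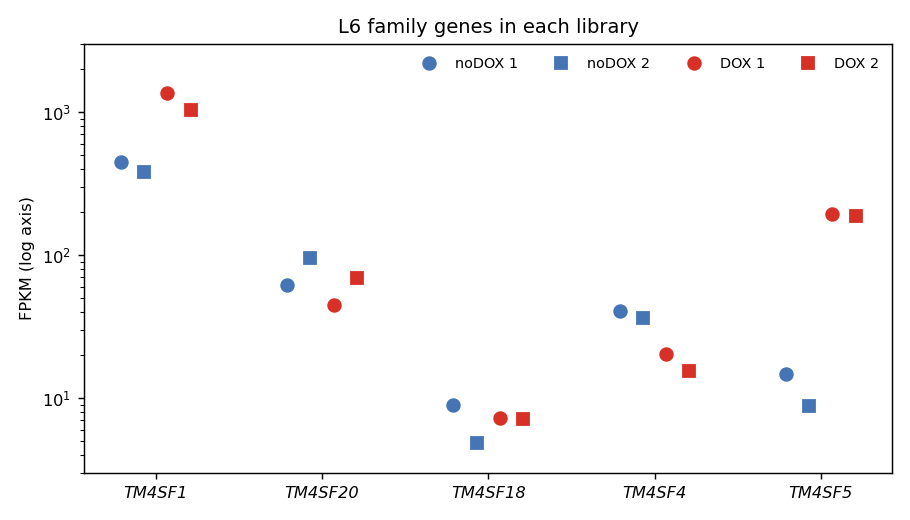
FPKM on a log axis of 5 L6 family genes in each of the 4 libraries (blue, noDOX; red, DOX; circle, library 1; square, library 2). Red lies above blue for TM4SF1 and TM4SF5 and below it for TM4SF4, while TM4SF20 and TM4SF18 overlap.

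CDH17 was at 14.7 and 17.8 FPKM in noDOX libraries 1 and 2 and at 95.0 and 54.8 FPKM in DOX libraries 1 and 2. DOX library 1 was the highest, and the groups did not overlap. The means of 16.3 ± 2.2 and 74.9 ± 28.4 FPKM (SD, n = 2 each) gave a ratio of 4.61, and the log2 difference of 2.09 ranked 28 of 12117. CDH17 and GATA4 had like patterns across the libraries. GATA4 was at 12.2 and 14.5 FPKM without and 75.0 and 48.0 FPKM with doxycycline, and the within-library ratio of CDH17 to GATA4 was 1.21, 1.23, 1.27 and 1.14 in noDOX 1 and 2 and DOX 1 and 2. With each gene's own mean subtracted, GATA4 was the nearest of 12116 tested genes to CDH17, at a root mean square distance of 0.05 on the log2(FPKM + 1) scale over the 4 libraries. Next came SLC43A2 at 0.11, TMEM97 at 0.12, CYP26A1 at 0.13 and MBOAT4 at 0.14. MBOAT4, at 0.145 and 0.0786 FPKM in noDOX libraries, passed the filter on low values only through the DOX libraries. This likeness rests on 4 libraries that share the doxycycline contrast, and the GATA4 value does not separate introduced from endogenous transcripts. CDH17 was chosen partly for its rise in that contrast and GATA4 was raised by design, so a like step in both was partly set in advance. GATA4 itself did not pass over all genes (log2 difference 2.09, SE 0.30; limma, adjusted p = 0.289).

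TM4SF5 had a different profile from CDH17. The ratio of TM4SF5 to GATA4 was 1.21 and 0.606 in the noDOX libraries and 2.61 and 3.89 in the DOX libraries. The genes nearest to TM4SF5 lay further away, SLC7A8, an amino acid transporter, at 0.34, FAM151A at 0.35, GCKR, the glucokinase regulator, at 0.39, F10, coagulation factor X, at 0.47 and the fatty acid receptor CD36 at 0.47. Of these, all but GCKR were under 1 FPKM in both noDOX libraries and passed the filter on low values only through the DOX libraries. Few genes differed as much as TM4SF5, so few could lie near it, and no conclusion is drawn from the larger distances. In DOX library 1 against DOX library 2, CDH17 was at 95.0 and 54.8 FPKM and GATA4 at 75.0 and 48.0 FPKM, while TM4SF5 was at 196 and 187 FPKM.

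**Figure D2:**
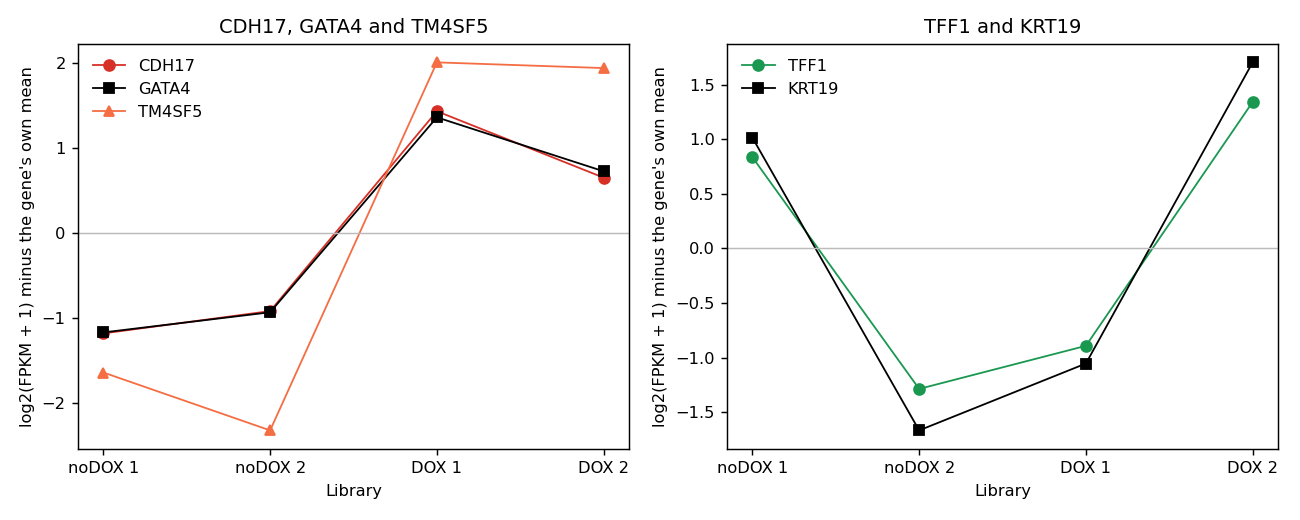
log2(FPKM + 1) of each gene minus its own mean in the 4 libraries, with lines joining the points of a gene and no order among libraries implied. On the left CDH17 lies on GATA4 in every library (root mean square distance 0.05) while TM4SF5 spans a wider range. On the right TFF1 and KRT19 are both high in noDOX 1 and DOX 2.

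The microvillar cadherins were near 0. CDHR2 was at 0.148 and 0.196 FPKM in noDOX and 0.234 and 0.0888 FPKM in DOX libraries, and CDHR5 at 0.0485 and 0.237 FPKM and at 0.220 and 0.0780 FPKM. The groups overlapped for both, and a difference was not detectable at these levels. CDHR2 also shares exon bases with GPRIN1 on the other strand. E-cadherin, CDH1, was at 8.73 and 17.6 FPKM and at 25.8 and 10.6 FPKM, and these groups overlapped (log2 difference 0.39, SE 0.54; limma, adjusted p = 0.999). The ratio of CDH17 to CDH1 was 1.68 and 1.02 in noDOX and 3.68 and 5.18 in DOX libraries. CDH16, the kidney cadherin closest in kind to CDH17, was under 1 FPKM throughout, at 0.352 ± 0.170 and 0.0575 ± 0.0124 FPKM. N-cadherin, CDH2, was at 1.67 and 0.644 FPKM and at 2.23 and 5.09 FPKM, so its DOX libraries also lay above its noDOX libraries (log2 difference 1.08, SE 0.43; limma, adjusted p = 0.816). No test of a difference between cadherins was run.

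VIL1 was low in all libraries, at 2.75 and 3.21 FPKM in noDOX and 6.36 and 3.61 FPKM in DOX libraries. DOX library 1 stood above the other values, and DOX library 2 exceeded noDOX library 2 only narrowly. The means were 2.98 ± 0.33 and 4.98 ± 1.94 FPKM, a log2 difference of 0.55. With the libraries scaled by their FPKM sums without small RNA genes, the groups overlapped, at 2.10 and 3.83 against 7.68 and 3.28. VIL1 shares exon bases with USP37 on the other strand. The within-library ratio of CDH17 to VIL1 was 5.34 and 5.55 without and 15.0 and 15.2 with doxycycline, higher in both DOX libraries.

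Other genes of the microvillus were mostly present, and 0 of the 22 tested passed over all genes (limma), where 0.088% of all genes passed, 3 higher (0.024%) and 8 lower (0.064%). Without adjustment 6 of the 22 had p under 0.05 (limma), all of them higher with doxycycline. Over all 12504 genes tested 793 did (6.34%), 353 higher and 440 lower. The microvillus list was chosen with earlier results of these data known, so its counts are a description. The DOX libraries lay above the noDOX libraries for 9 and below them for 3 of the 22, against 14.7% and 17.3% of all genes tested. The median difference was 0.10. PLS1, the microvillus actin bundler plastin 1, was at 23.8 and 25.3 FPKM in noDOX and 97.9 and 54.3 FPKM in DOX libraries (log2 difference 1.53, SE 0.35; limma, adjusted p = 0.520). MYO1A, the brush border myosin that ties the actin core to the membrane, was at 0.992 and 0.895 FPKM and at 4.91 and 2.72 FPKM (limma, adjusted p = 0.527). MYO1A shares exon bases with TAC3 on the same strand, so its values are uncertain, and it passed the filter on low values only through the DOX libraries. MYO1D and PDZK1 passed it only through the noDOX libraries, and among the other 19 genes 5 had an unadjusted p under 0.05. Among these 19 the DOX libraries lay above the noDOX libraries for 8 and below them for 2. EPS8L3 was at 2.95 ± 0.21 and 5.66 ± 0.10 FPKM (log2 difference 0.76, SE 0.17; limma, adjusted p = 0.520). Ezrin, EZR, which links the membrane to actin, was named after its values were seen and was at 80.9 and 77.5 FPKM against 158 and 165 FPKM (limma, adjusted p = 0.567).

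The tip-link partners of CDHR2 and CDHR5 did not share these higher values. USH1C, the scaffold harmonin, was at 11.5 and 20.1 FPKM in noDOX and 9.48 and 6.35 FPKM in DOX libraries, with both DOX values below both noDOX values (log2 difference -0.89, SE 0.35; limma, adjusted p = 0.815). ANKS4B, another scaffold of the complex, was at 1.02 ± 0.48 and 1.38 ± 0.20 FPKM, and its groups overlapped. Its motor MYO7B was at 0.131 ± 0.024 and 0.0582 ± 0.0270 FPKM, too low for the test.

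LGALS4 was at 8.48 and 3.35 FPKM in noDOX and 22.7 and 16.9 FPKM in DOX libraries. The groups did not overlap, while the noDOX libraries differed from each other by more than the DOX libraries did on the log2 scale. The means were 5.92 ± 3.63 and 19.8 ± 4.1 FPKM, 3.35 times as high with doxycycline, and the log2 difference of 1.68 ranked 52 of 12117. It ran from 1.12 without noDOX library 2 to 2.24 without noDOX library 1. Of the other 13 galectin genes 4 were at 0 in every library and 4 were tested. Among those tested 0 passed (limma), against 0.088% of all genes, and 1 had an unadjusted p under 0.05, against 6.34%. LGALS1 was the most abundant, at 862 ± 68 and 955 ± 110 FPKM, and LGALS3 was at 85.1 and 45.5 FPKM against 46.7 and 93.5 FPKM. LGALS8 was the gene with the unadjusted p under 0.05 and was lower, at 7.01 ± 1.14 and 4.40 ± 0.49 FPKM (log2 difference -0.57, SE 0.20; limma, adjusted p = 0.752), and it shares exon bases with 3 other genes. The ratio of LGALS4 to LGALS3 within a library was 0.0997 and 0.0736 in noDOX and 0.485 and 0.181 in DOX libraries.

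The trefoil factors, neighbours in the RefSeq gene order, were expressed unequally. TFF1 was at 56.2 and 12.1 FPKM in noDOX libraries 1 and 2 and at 16.3 and 80.2 FPKM in DOX libraries 1 and 2. The groups overlapped, with means of 34.2 ± 31.2 and 48.2 ± 45.2 FPKM (SD, n = 2 each). The difference changed sign with the library left out, from -0.67 without DOX library 2 to 1.57 without DOX library 1, and from -0.61 without noDOX library 2 to 1.51 without noDOX library 1. TFF1 was high in the libraries with the higher FPKM sums, and the part of that in its values was not tested. Scaled by the FPKM sum without small RNA genes it was still split, at 42.8 and 14.5 against 19.6 and 72.9. KRT19, a keratin of simple epithelia, had a like pattern, at 53.5 and 7.49 FPKM in noDOX and 12.0 and 87.0 FPKM in DOX libraries, and the ratio of TFF1 to KRT19 within a library ran from 0.922 to 1.62. The longest annotated TFF1 transcript is 551 bases, the shortest among the 10 genes. TFF2 was at 0 and 0.0456 FPKM in noDOX and 0.620 and 0.145 FPKM in DOX libraries, and TFF3 was at 0.0311 FPKM, 0, 0.0282 FPKM and 0. No fold is given for either, since each is listed at 0 in some library and an exact 0 can be a failed estimate, although 0 of 10 housekeeping genes were at 0 in any library.

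The order of levels shifted between the groups. Without doxycycline TM4SF4 and TFF1 led by mean, followed by CDH17 and TM4SF5, whose libraries overlapped, then LGALS4 and VIL1. TFF1 spanned the range of the genes around it, so its place is not set. With doxycycline TM4SF5 stood above every other gene of the list in both libraries, and CDH17 and TFF1 overlapped. LGALS4 and TM4SF4, at 19.8 ± 4.1 and 17.9 ± 3.4 FPKM, also overlapped across libraries. Within each DOX library LGALS4 was slightly the higher, at 22.7 against 20.3 FPKM and at 16.9 against 15.4 FPKM. VIL1 ranked 6 of 10 in all 4 libraries, and TFF2, TFF3, CDHR2 and CDHR5 were under 1 FPKM in all of them. Each gene's direction held under the other pseudocounts. Scaling by the FPKM sum moved the median of all genes by 0.12, and CDHR2 and TFF3, both near 0, changed sign under it.

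Most of the enterocyte genes were near 0. Of 32 enterocyte genes 24 were under 1 FPKM in every library, among them the disaccharidases SI and LCT. Of the 6 tested 0 passed (limma), against 0.088% of all genes. An unadjusted p under 0.05, which 6.34% of all genes had, was found for 3, 2 higher and 1 lower. ANPEP, aminopeptidase N of the brush border, was at 0.529 and 0.386 FPKM in noDOX and 5.01 and 3.85 FPKM in DOX libraries (log2 difference 1.89, SE 0.23; limma, adjusted p = 0.219). It passed the filter on low values only through the DOX libraries, and without it 1 higher and 1 lower gene remained at that threshold. The adhesion molecules CEACAM1 and CEACAM6 had opposite signs. CEACAM1 was at 6.07 ± 1.60 and 14.6 ± 4.3 FPKM (limma, adjusted p = 0.590), and CEACAM6 at 24.2 ± 4.7 and 11.1 ± 0.5 FPKM (limma, adjusted p = 0.496). Of 13 mucus and goblet cell genes 7 were under 1 FPKM in every library, 5 were tested and 0 passed (limma), with 1 unadjusted p under 0.05. It was REG4, a secreted lectin of gut epithelium, at 0.557 and 0.242 FPKM against 7.66 and 3.11 FPKM (log2 difference 2.10, SE 0.42; limma, adjusted p = 0.491), which also passed the filter only through the DOX libraries. SPDEF, a goblet cell transcription factor, was at 6.99 and 3.18 FPKM in noDOX and 0.709 and 3.08 FPKM in DOX libraries (limma, adjusted p = 0.927).

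Of the 13 tested gut transcription factors 7 had higher and 6 lower mean log2 values, where 43.9% of all genes were higher, and 0 passed (limma), with 3 at an unadjusted p under 0.05. These were HNF4A, KLF4 and GATA4, the last being the gene overexpressed by design in the DOX group. HNF4A, a nuclear receptor that drives enterocyte genes, was at 17.9 and 14.7 FPKM in noDOX and 32.6 and 29.4 FPKM in DOX libraries (log2 difference 0.90, SE 0.22; limma, adjusted p = 0.566). KLF4, a factor of differentiated gut epithelium, was at 3.88 ± 0.03 and 10.9 ± 2.2 FPKM (log2 difference 1.27, SE 0.21; limma, adjusted p = 0.382). CDX2, the intestinal homeobox factor, was at 2.34 and 2.93 FPKM and at 1.51 and 2.61 FPKM, with overlapping groups (limma, adjusted p = 0.999). Over all 55 tested related genes 0 passed (limma), and 15 had an unadjusted p under 0.05, 13 higher and 2 lower. Over all genes tested 793 did (6.34%), 353 higher and 440 lower. The related lists were chosen with earlier results of these data known, so their counts are a description and no test of enrichment. Among the 50 related genes whose mean reached 1 FPKM in each group, 10 higher and 2 lower genes did. The share over all genes under that stricter filter was not worked out. The higher genes of both related counts include GATA4, whose rise was set by the design.

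**Figure D3:**
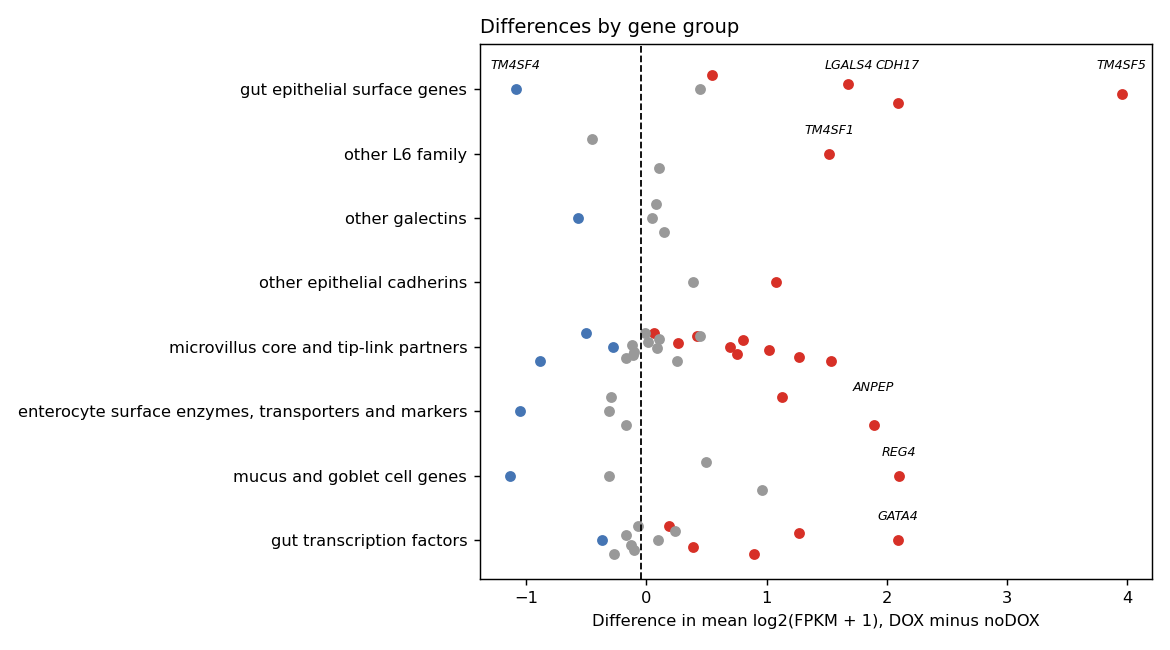
Difference in mean log2(FPKM + 1), DOX minus noDOX, of each gene whose mean reached 1 FPKM, by gene group (red, both DOX libraries above both noDOX libraries; blue, below; grey, overlapping; vertical spread within a row only separates points). The dashed line is the median of all tested genes, -0.04. TM4SF5 at 3.95 lies furthest to the right, and every group except the L6 row, the cadherin row and the galectin row holds both red and blue points.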

How the data were processed

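Polyadenylated RNA of 4 A549 libraries was analysed. Per the submitters' processing notes, TopHat2 2.0.10, Bowtie, Cufflinks 2.2.1 and Cuffdiff were used with hg19. The authors deposited 1 table of FPKM with a column for each library. Annotation, the use of strand and any scaling across libraries were not given in the sources used here. Each symbol had 1 row.

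The 12504 genes whose mean reached 1 FPKM were tested on log2(FPKM + 1) with limma 3.58.1 (R 4.3.3), using a model of the group means and a mean-variance trend, on 2 residual degrees of freedom. Two-sided p-values were adjusted over all these genes (Benjamini-Hochberg, threshold 0.05). The genes of interest and the related lists were chosen with earlier results of these data known. Related genes were named from a set list of 10 and by up to 3 smallest p per list among genes whose libraries did not overlap. A gene of the set list is not reported here. Likeness to CDH17 and TM4SF5 was the root mean square distance of centred profiles, small RNA genes left out, and the nearest 5 were named. Promoters came from RefSeq (GRCh38.p14), and exon overlaps and transcript lengths from GENCODE release 29, matched by symbol. Alternatives covered the pseudocount, filter, scaling, moderation, small RNA genes, a replicate block and each library left out. A crossed block was added after the data were seen.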

Additional observations from a re-analysis of the deposited data

How the results depend on the processing

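The directions of TM4SF5, CDH17, LGALS4, VIL1, TFF2 and TM4SF4 held under all 13 alternatives, but only the scalings could have reversed them. Their libraries did not overlap, so another pseudocount or leaving 1 library out cannot change the sign. The filter, moderation, small RNA and replicate block settings do not alter these differences. The log2 difference ran from 3.61 to 4.30 for TM4SF5, 1.70 to 2.48 for CDH17, 1.12 to 2.24 for LGALS4, 0.21 to 0.89 for VIL1 and -1.27 to -0.90 for TM4SF4, while TFF1 ran from -0.67 to 1.57. TFF2, under 1 FPKM throughout, ran from 0.16 to 3.73, the latter with a pseudocount of 0.01, so its size is not set. The 10-gene median was 0.57 and 0.58 with pseudocounts of 0.1 and 0.01, and 0.52 with scaling by the FPKM sum. The median of the 10 genes ran from 0.19 to 0.42 with 1 library left out, where the number of genes with DOX libraries above was 6 and below 1 to 2, fewer libraries making overlap less likely. No related gene passed under any alternative, the blocks included (0 with limma), and E-cadherin, CDH1, ran from -0.21 to 0.998 with 1 library left out, below 0 without noDOX library 1 (-0.07) and without DOX library 1.

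Counts over all genes, 3 higher and 8 lower, were less stable, and the cause was not tested. They were 5 higher with a pseudocount of 0.1, 0 and 1 with no filter on low values (1311 at an unadjusted p under 0.05), 6 higher with robust moderation, and 1 and 0 without small RNA genes (855 at an unadjusted p under 0.05). With 1 library left out they ran from 7 to 34 higher and 23 to 54 lower, the lone library being assumed to vary like the other group. With the replicate number as a block they were 30 and 35. Deviations of same-numbered libraries correlated at -0.76 over 12117 genes, and with 2 pairs the numbers were taken as labels that pair nothing. The crossed block, pairing noDOX library 1 with DOX library 2, gave 2 and 5, with 2617 genes at an unadjusted p under 0.05 (limma). That count was 793 in the main fit and 601 with the replicate number as a block. What lay behind the negative correlation was not tested. Depth is not known and limits what can be said of genes under 1 FPKM.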

Other observations

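Of the 58 related genes too low for the test, 9 were at 0 in every library. Both DOX libraries lay above both noDOX libraries for 10 of the 58 and below them for 12. Over all 19429 genes above 0 in some library, tested genes included, the shares were 12.6% and 19.4%. Among the 12504 tested genes they were 14.7% and 17.3%. For low genes alone the first share is therefore under 12.6% and the second over 19.4%. The 9 genes at 0 in every library have no counterpart in this background, so the counts and shares are not like for like. The low related genes given here were named after their values were seen. FABP1, the liver fatty acid binding protein of enterocytes, was at 0.0737 and 0.128 FPKM in noDOX and 1.40 and 0.508 FPKM in DOX libraries. GKN2, a gastric mucosal peptide that partners TFF1, was listed at 0 in both noDOX libraries and at 0.805 and 1.65 FPKM with doxycycline. Lower values were those of the goblet cell mucin MUC2, at 0.402 and 0.207 FPKM against 0.0455 and 0.130 FPKM, and of the brush border peptidase DPP4, at 0.443 and 0.490 FPKM against 0.214 and 0.0887 FPKM. TM4SF19, which shares exon bases with a readthrough gene on the same strand and with an antisense gene, was at 0.435 and 0.324 FPKM against 1.56e-06 and 3.86e-05 FPKM. These are values of 4 libraries, with no test.

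The genes nearest to TFF1 in profile, looked up after its split between libraries was seen, were BST1 at a root mean square distance of 0.21, KRT19 at 0.29, RNF5 at 0.34, PYCARD at 0.40 and FADS2 at 0.40 over 12116 genes. BST1 was at 3.15 and 0.306 FPKM in noDOX and 0.864 and 6.39 FPKM in DOX libraries. AGR2, a secretory pathway protein of mucus cells, was low in noDOX library 2 alone, at 195 FPKM against 533 in noDOX library 1 and 445 and 467 FPKM in the DOX libraries.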
